A study of Mus musculus with 32 samples.

Results

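The genes described here are the nuclear-encoded subunits of the mitochondrial respiratory chain and of ATP synthase. They were taken by symbol from the deposited count table: the numbered Ndufa, Ndufb, Ndufc, Ndufs and Ndufv genes, Sdha to Sdhd, all Uqcr genes, Cox4 to Cox8 and all Atp5 genes. The rule found 84 of the 24421 genes in the table. Of these, 35 were assigned to complex I, 4 to complex II, 8 to complex III, 19 to complex IV and 15 to ATP synthase. The other 3 (Atp5s, Atp5sl and Cox7a2l) carry a matching symbol but are not subunits of a complex and were counted apart. Ndufa4 and Ndufa4l2 were counted with complex IV, where the Ndufa4 protein is now placed. Ndufs5 was listed at 0 in every library, Cox8c had 4 counts and Cox7b2 144 counts over all 32 libraries.

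Complexes I and II pass electrons from NADH and succinate to ubiquinone, complex III passes them to cytochrome c, and complex IV (cytochrome c oxidase) passes them to oxygen. Complexes I, III and IV pump protons, and ATP synthase uses the proton gradient to make ATP. Several subunits exist as tissue isoforms encoded by separate genes, best known for Cox6a, Cox7a and Cox8 of complex IV, which have a form typical of striated muscle and a form found in most other tissues.

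The study measured RNA by sequencing in pigmented C57BL/6 mice and in albino B6(CG)Tyr(c-2J)/J mice, a line studied for its nystagmus, an involuntary eye movement. Per strain there were 4 libraries each of tibialis anterior (TA), a muscle of the lower leg, of extraocular muscle (EOM), which turns the eyeball, and of samples labelled oculomotor neuron (CN3) and abducens motor neuron (CN6), the brainstem cell groups that drive eye muscles. The albino line carries the c-2J allele of Tyr, the gene of the pigment enzyme tyrosinase. No treatment is named, and the labels give no age and no statement that libraries came from separate animals, so the p-values measure the spread between these samples.

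Library totals ran from 18544334 to 44254021 counts. Tissue markers contradicted the label in 8 of the 16 albino libraries and in none of the 16 C57BL/6 libraries. The libraries labelled albino EOM 1 and 2 and TA 1 and 2 carried brain markers, and those labelled albino CN3 3 and 4 and CN6 3 and 4 carried muscle markers. Comparisons of strains therefore used the other 24 libraries, 4 of C57BL/6 against 2 of albino in each tissue. The 5 motor neuron markers summed to only 4.21 to 7.03 CPM (counts scaled to a library total of 1e6) in C57BL/6 CN3, against 65.1 to 150.3 in C57BL/6 CN6, 52.0 to 99.1 in albino CN3 and 143 to 159 in albino CN6. In these bulk samples, fewer cells of a type and less RNA per cell cannot be told apart.

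The genes of these subunits together took 4.24% ± 0.18 (SD, n = 4) of all counts in C57BL/6 EOM. Their share lay between 3.41% and 3.65% in TA. CN3 and CN6 libraries ran from 1.20% to 1.32% and from 1.42% to 1.46%. In albino EOM the 2 usable libraries gave 5.46% and 5.65%, above all 4 of C57BL/6, and albino TA gave 4.00% and 4.16%, also above all 4 of its C57BL/6 group. Albino CN3 (1.22% and 1.27%) lay within the C57BL/6 range, and albino CN6 (1.30% and 1.47%) on either side of it. Among the left-out libraries with muscle markers, those labelled albino CN3 3 and 4 held 5.815% and 5.047%. Those labelled albino CN6 3 and 4 held 4.579% and 3.358%, the last below all 4 C57BL/6 TA libraries. With brain markers, those labelled albino EOM 1 and 2 held 1.175% and 1.236%, and TA 1 and 2 held 1.388% and 1.364%. The share depends on what else fills the library, which the scaled comparisons of single genes treat separately.

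**Figure D1:**
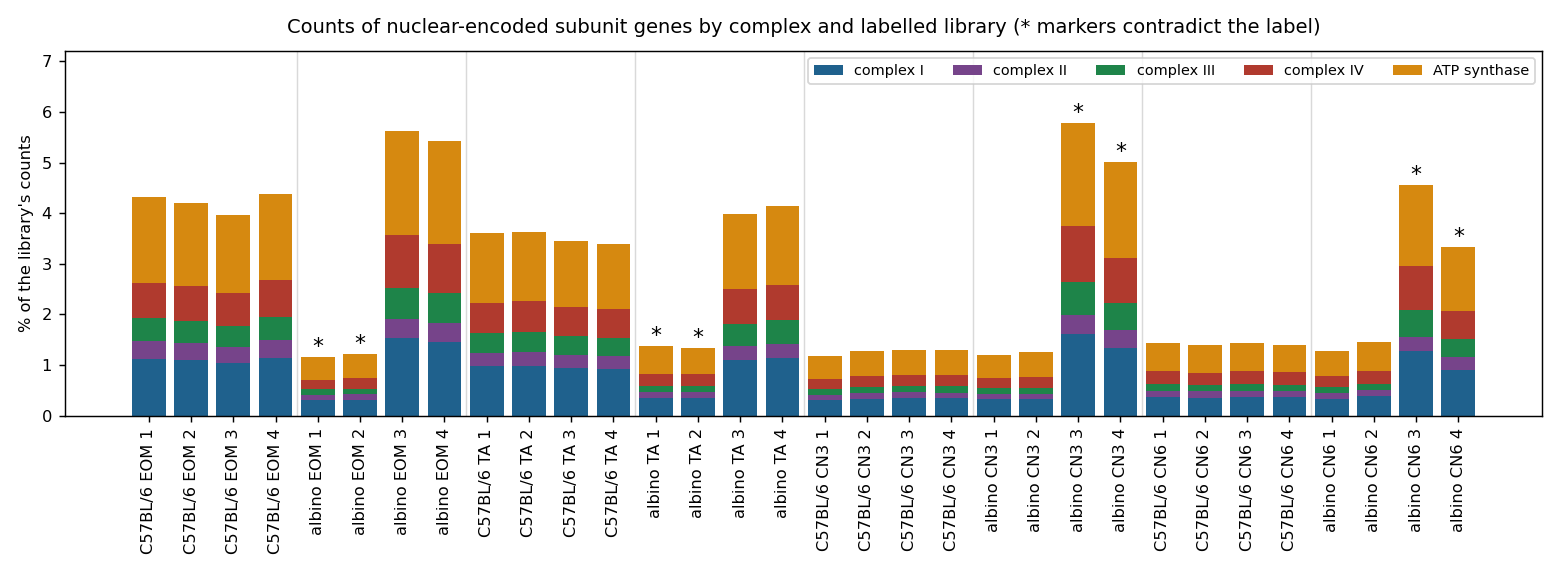
Percent of all counts (vertical axis) taken by the genes of each complex, stacked, in each library as labelled; an asterisk marks the 8 albino libraries whose markers contradicted the label. Unmarked muscle libraries stand between 3.41% and 5.65% and unmarked brainstem libraries between 1.20% and 1.47%. The marked libraries fall on the side of their markers, at 3.358% to 5.815% with muscle markers and 1.175% to 1.388% with brain markers.

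The clearest tissue pattern was in complex IV, where muscle and brainstem used different genes for the same subunit. Cox6a2, Cox7a1 and Cox8b, the striated muscle isoforms, were high in both muscles and nearly absent from CN3 and CN6. Cox6a1 and Cox8a, the general isoforms, were lower in muscle than in brainstem, while Cox7a2, the general form of the third pair, was high in muscle as well. The promoters of 2 of these pairs are shown, those with a RefSeq entry for both genes, so that the muscle and the general form can be compared. Each is the 250 bases before the annotated start from RefSeq on GRCm38.p6, written along the gene's strand, with each CG dinucleotide in capitals. Cox7a1 (chr7:30183921-30184170, plus strand) and Cox8b (chr7:140900447-140900696, minus strand) are the muscle isoforms, and Cox7a2 (chr9:79759854-79760103, minus strand) and Cox8a (chr19:7217617-7217866, minus strand) the general ones. The RefSeq starts of Cox7a1 and Cox7a2 differ from the GENCODE gene positions given below. The last bases of these windows therefore lie inside those positions.
Cox7a1: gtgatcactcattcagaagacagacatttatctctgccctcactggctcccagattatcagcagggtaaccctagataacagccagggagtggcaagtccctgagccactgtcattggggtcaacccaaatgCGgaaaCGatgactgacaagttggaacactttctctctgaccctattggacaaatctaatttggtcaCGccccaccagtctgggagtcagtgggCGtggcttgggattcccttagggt
Cox7a2: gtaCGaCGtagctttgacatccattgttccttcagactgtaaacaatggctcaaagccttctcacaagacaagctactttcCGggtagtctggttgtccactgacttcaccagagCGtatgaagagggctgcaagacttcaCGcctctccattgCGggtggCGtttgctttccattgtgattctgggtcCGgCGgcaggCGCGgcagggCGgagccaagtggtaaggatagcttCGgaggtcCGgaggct
Cox8b: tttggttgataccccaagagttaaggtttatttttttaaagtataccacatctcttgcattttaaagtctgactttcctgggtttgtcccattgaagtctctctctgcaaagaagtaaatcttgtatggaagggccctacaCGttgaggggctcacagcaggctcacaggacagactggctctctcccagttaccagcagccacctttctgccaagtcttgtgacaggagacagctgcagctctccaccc
Cox8a: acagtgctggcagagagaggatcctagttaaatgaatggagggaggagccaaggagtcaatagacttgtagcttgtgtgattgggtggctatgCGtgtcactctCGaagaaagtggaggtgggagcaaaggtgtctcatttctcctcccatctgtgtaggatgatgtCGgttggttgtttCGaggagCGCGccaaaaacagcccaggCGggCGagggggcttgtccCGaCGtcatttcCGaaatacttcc
The muscle isoforms held 4 (Cox7a1) and 1 (Cox8b) CG dinucleotides in this window, and the general isoforms 14 (Cox7a2) and 11 (Cox8a). The median was 14 over the 71 windows of the 66 members with an entry and 10 over the 20788 windows of all genes of the table with an entry. The Cox8b window also held 1 CAGCTG, the E-box read by muscle regulatory factors of the MyoD family, ending 13 bases before the start. These are matches of letters and no measurement of binding.

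Cox6a2 (chr7:128205435-128206387 in mm10, minus strand) encodes the muscle form of subunit VIa. In the 4 C57BL/6 EOM libraries it stood at 819.6, 767, 623.3 and 822.3 CPM, and in the 4 TA libraries at 634.5, 644.4, 557.2 and 640.6 CPM. In the 8 C57BL/6 brainstem libraries it ran from 0.064 CPM through a median of 0.234 to 1.76 CPM, which is 2 to 54 counts per library. No muscle library came near the brainstem range. Cox6a1 (chr5:115345642-115348981, minus strand), the general form, showed the opposite order. It stood at 49.4, 44.4, 47.5 and 46.6 CPM in EOM and at 14.4, 14.7, 12.5 and 13.1 CPM in TA, against 150.3 to 178.9 CPM in the 8 brainstem libraries. The 3 ranges (brainstem, EOM, TA) did not overlap.

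Cox8b (chr7:140898945-140900446, minus strand), the muscle form of subunit VIII, stood at 467.7, 485.9, 421.3 and 509.2 CPM in C57BL/6 EOM and at 379.5, 421.3, 369.5 and 396.7 CPM in TA. Its brainstem levels ran from 0.053 to 0.704 CPM. Cox8a (chr19:7215153-7217616, minus strand), the general form, stood at 94.9, 81.9, 85.05 and 82.3 CPM in EOM, at 18.7, 19.0, 15.4 and 17.8 CPM in TA and at 167.4 to 215.1 CPM in brainstem. As for Cox6a1, every EOM library held more of the general form than every TA library and less than every brainstem library.

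Cox7a1 (chr7:30184144-30186078, plus strand), the muscle form of subunit VIIa, stood at 307.8, 313.4, 276.9 and 318.5 CPM in C57BL/6 EOM and at 333.8, 375.4, 323.4 and 333.2 CPM in TA. In brainstem it ran from 1.86 to 4.52 CPM, which was higher than the other muscle isoforms there. Cox7a2 (chr9:79755361-79759878, minus strand), the general form, stood at 412.9, 391.2, 366.7 and 399.6 CPM in EOM and at 246.1, 248.2, 223.8 and 218.5 CPM in TA, both above its brainstem range of 143.9 to 185.4 CPM. Of the 3 general isoforms only Cox7a2 was higher in muscle than in brainstem (log2 difference 1.53, edgeR adjusted p = 1.4e-15 over all genes).

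**Figure D2:**
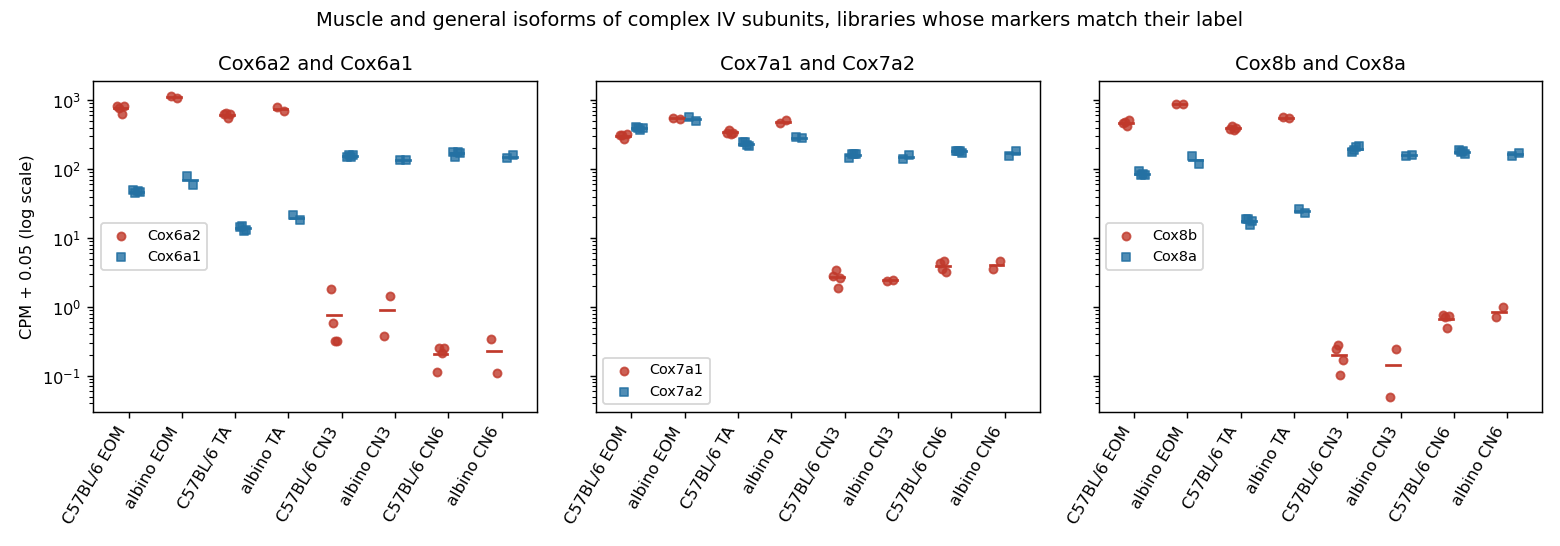
CPM on a log scale (vertical axis) of the muscle and general isoforms of Cox6a, Cox7a and Cox8 in the libraries whose markers matched their label, by strain and tissue; points are libraries and bars group means. Muscle isoforms lie at 276.9 CPM or above in every muscle library and at 4.60 CPM or below in every brainstem library, and Cox6a1 and Cox8a are lower in TA than in EOM.

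Within a library, the ratio of 2 isoforms does not depend on how libraries are scaled, so it carries the comparison of EOM with TA. Per exon length, Cox6a2 made up 94.3% ± 0.77 (SD, n = 4) of the Cox6a pair in C57BL/6 EOM and 97.9% ± 0.10 in TA. Cox8b made up 90.4% ± 1.03 of its pair in EOM and 97.4% ± 0.18 in TA. Cox7a1 made up 57.7% ± 0.90 in EOM and 72.0% ± 1.09 in TA. EOM thus held relatively more of the general isoform in each pair. The log2 ratio of muscle to general isoform was lower in EOM by 1.49 for Cox6a (2.81-fold, 4.05 ± 0.20 against 5.54 ± 0.07). For Cox8 the difference was 2.02 (4.05-fold, 3.23 ± 0.17 against 5.25 ± 0.10), and for Cox7a it was 0.91 (1.88-fold, 0.45 ± 0.05 against 1.36 ± 0.08). The exact two-sided permutation test gave p = 0.0286 for each, the smallest that 4 libraries against 4 allow, and 0.0458 after adjustment over the 16 pair tests. In each pair all 4 EOM libraries lay below all 4 TA libraries, and leaving out any 1 library kept each sign, an alternative chosen after seeing the data.

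**Figure D3:**
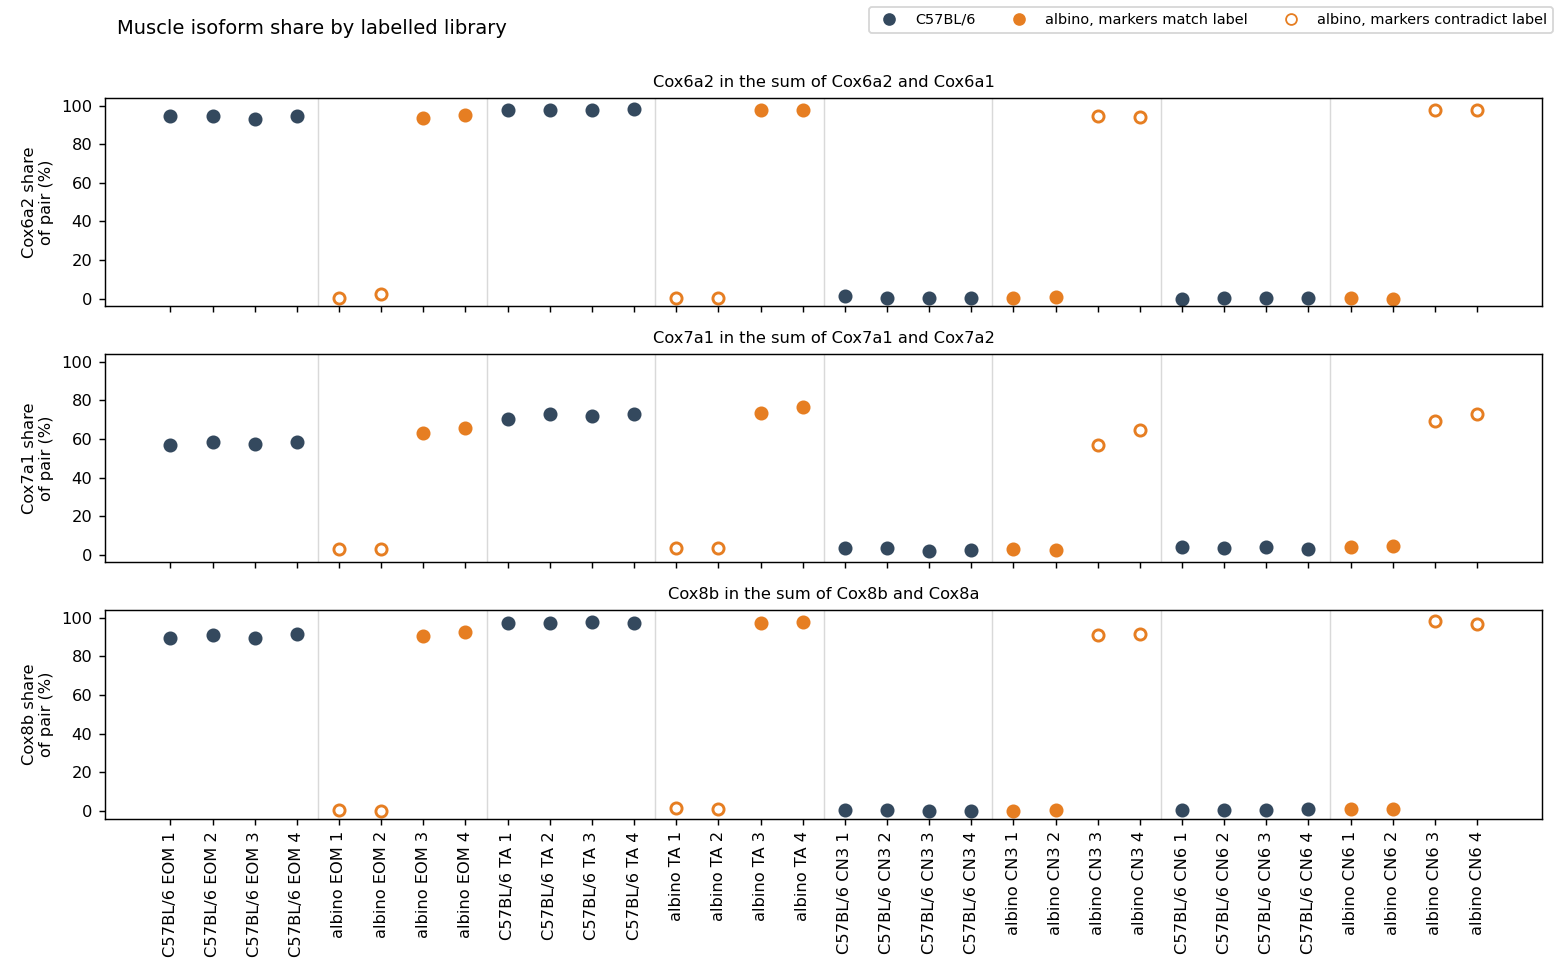
Percent of the muscle isoform in each of the pairs Cox6a2/Cox6a1, Cox7a1/Cox7a2 and Cox8b/Cox8a per exon length (vertical axis) in all 32 libraries by label; open symbols are libraries whose markers contradict the label. EOM lies below TA in each pair for C57BL/6, with Cox7a1 at 56.8% to 58.6% in EOM and 70.5% to 72.9% in TA.

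Other isoform pairs of complex IV were nearly all one gene. Cox6b2, known as the testis form of subunit VIb, stood at 0.827 to 1.56 CPM in EOM, 0.215 to 0.346 CPM in TA and 1.99 to 4.37 CPM in brainstem, beside 379.6 to 498.7 CPM of Cox6b1 in muscle. Its ratio to Cox6b1 was 3.41-fold higher in EOM than in TA (log2 difference 1.77, exact permutation p = 0.0286, adjusted 0.0458). Cox4i2, a form of subunit IV known from lung and from low oxygen, stood at 2.13 to 4.01 CPM in EOM and 2.18 to 3.38 CPM in TA, beside 734 to 856 CPM of Cox4i1, and the ratio was not separated between the muscles (log2 difference 0.11, exact permutation p = 0.543). In CN3 the Cox4i2 ratio was 1.85-fold higher than in CN6 (exact permutation p = 0.0286, adjusted 0.0458). Ndufa4l2, the hypoxia-induced relative of Ndufa4, was at 4.74 to 8.36 CPM in muscle, and its ratio to Ndufa4 was not separated between EOM and TA (log2 difference −0.22, exact permutation p = 0.343). Ndufa4l2 itself was called lower in EOM with TMM factors (−0.71, edgeR adjusted p = 0.00375) but not with library totals (−0.04, adjusted p = 0.855).

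Subunit c of ATP synthase, which forms the rotor ring in the membrane, is encoded by 3 genes with one mature protein. Per exon length, Atp5g3 gave 69.0% of their sum in C57BL/6 EOM and 63.0% in TA, against 71.3% and 72.8% in CN3 and CN6. Atp5g1 gave 17.5% in EOM and 18.8% in TA, and 11.5% and 12.9% in CN3 and CN6. Atp5g2 gave 13.5% in EOM and 18.2% in TA, against 17.3% and 14.2% in the brainstem samples. Relative to Atp5g3, EOM held 1.48-fold less Atp5g2 and 1.17-fold less Atp5g1 than TA (exact permutation p = 0.0286 each, adjusted 0.0458). Atp5g3 was the main gene in all 4 tissues.

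Compared per kilobase of exon, the level of the complexes followed 1 order in both muscles. The median CPM per kilobase in C57BL/6 EOM was 420 for complex III, 348 for complex II, 288 for complex IV, 223 for ATP synthase and 182 for complex I. In TA the medians were 354, 279, 239, 209 and 158 in the same order. These medians include members with almost no counts, Ndufs5 in complex I and Cox8c, Cox7b2 and Cox6b2 in complex IV. For ATP synthase they cover 14 genes. The order among expressed members only was not computed. The highest gene of complex IV was Cox8b in EOM (1308 CPM per kilobase) and in TA (1088). In CN3 it was Cox8a (318) and in CN6 Cox6b1 (374). The α and β subunits of the catalytic head led ATP synthase, with Atp5a1 at 1290 and Atp5b at 1203 CPM per kilobase in EOM, and Atp5b at 372 in CN3 and 436 in CN6.

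Against the brainstem samples, nearly all subunits of each complex were higher in muscle. In C57BL/6, 81 members could be tested with edgeR's quasi-likelihood test with Benjamini-Hochberg adjustment over all genes, and 78 were higher in muscle (EOM and TA weighted equally) and 3 lower. By the same call (adjusted p under 0.05), 88.8% of all tested genes differed, 41.4% being higher and 47.4% lower in muscle. The median member was 2.20 higher on the log2 scale, against −0.13 over all tested genes. All tested members were higher in complex I (34, median 2.17), complex II (4, median 2.51), complex III (8, median 2.73) and ATP synthase (15, median 2.20), and 14 of 17 in complex IV (median 1.95).

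The largest differences were the muscle isoforms, Cox6a2 at 11.68 ± 0.24 (SE, adjusted p = 2.6e-18), Cox8b at 11.12 ± 0.11 (adjusted p = 5.4e-22) and Cox7a1 at 7.34 ± 0.11 (adjusted p = 4.5e-20) in the edgeR fit. Outside these, Uqcrq of complex III was 3.36 higher, Atp5e, the ε subunit of the central stalk, 3.09 higher, and Ndufb11, an accessory subunit of the complex I membrane arm, 2.83 higher. Uqcrq stood at 286 to 360 CPM in the 8 C57BL/6 muscle libraries and 41.3 to 59.8 CPM in the 8 of brainstem, with no overlap. The 3 lower members were general or minor isoforms, Cox6a1 (−1.99 ± 0.05, edgeR adjusted p = 8.2e-17), Cox8a (−1.58 ± 0.06, adjusted p = 7.6e-15) and Cox6b2 (−1.55 ± 0.22, adjusted p = 2.8e-06). The 3 genes that are no subunits had small differences, Cox7a2l 0.75, Atp5s 0.54 and Atp5sl 0.49. With offsets for GC content and gene length Cox7a2l turned to −0.18, and 76 members were higher (42.2% of all genes) and 5 lower.

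Between the muscles, the direction of most subunits depended on the scaling of the libraries. With edgeR's TMM factors, 72 of 81 tested members were lower in C57BL/6 EOM than in TA and 3 higher, in a comparison where 77.2% of all tested genes were called, 35.0% as lower in EOM and 42.3% as higher. Scaled by library totals alone, an alternative chosen after seeing the data, 56 were higher and 4 lower, close to the share of all genes that were higher (72.9%) and below the share lower (11.0%). The median of all genes was 0.10 with TMM and 0.78 with totals, and the median member lay 0.53 below it on the log2 scale with each (−0.43 and 0.25). So relative to the typical gene the subunits were lower in EOM, while as a share of all counts they were higher. Of the members, 48 were called higher under one of 4 scalings and lower under another.

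Cox8a (1.61 ± 0.08, SE, edgeR adjusted p = 2.7e-09), Cox6a1 (1.11 ± 0.08, adjusted p = 5.2e-08) and Cox6b2 (1.47 ± 0.37, adjusted p = 0.00324) were higher in EOM under all 4 scalings. Cox7a1 (−0.84 ± 0.07, edgeR adjusted p = 2.4e-07) and the complex I membrane arm subunits Ndufb2 (−0.85), Ndufb5 (−0.83) and Ndufa3 (−0.81) were lower in EOM under all 4. Ndufb5 stood at 377.1, 368.1, 357.6 and 373.3 CPM in EOM and at 445.3, 405.7, 405.5 and 393.2 CPM in TA. The EOM and TA values of Ndufb5 did not overlap. Called lower with TMM but not under every scaling were Atp5j, part of the peripheral stalk of ATP synthase (−0.76, edgeR adjusted p = 1.5e-07), and the complex III members Uqcrc1 and Uqcr10 (−0.61 each). With TMM the complexes had medians of −0.52 (complex I, 32 of 34 lower), −0.25 (complex II, 4 of 4), −0.49 (complex III, 8 of 8), −0.40 (complex IV, 12 of 17) and −0.41 (ATP synthase, 13 of 15). Succinate dehydrogenase, complex II, had the smallest median of the 5 complexes, with Sdha and Sdhb at −0.25, Sdhc at −0.22 and Sdhd at −0.43, all called with TMM. Scaled by library totals, these 4 genes were called higher in EOM, Sdha and Sdhb at 0.42, Sdhc at 0.45 and Sdhd at 0.25.

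**Figure D4:**
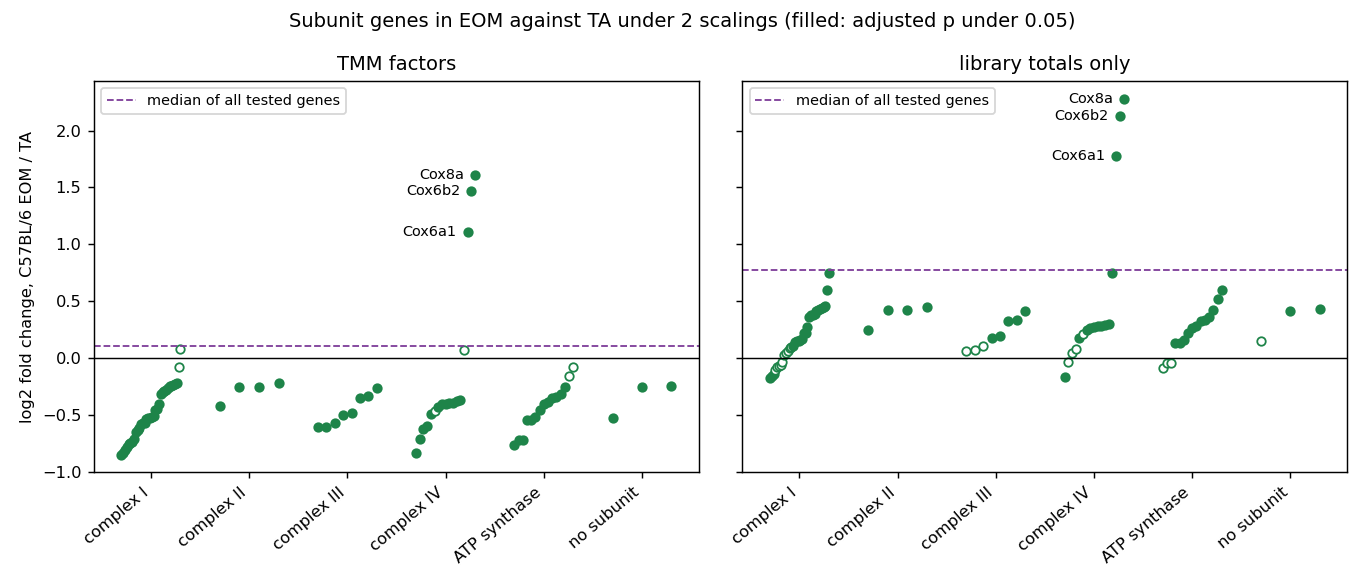
Log2 difference of C57BL/6 EOM minus TA (vertical axis) for each tested member by complex, with TMM factors and with library totals; filled points passed the test and the dashed line is the median of all tested genes, 0.10 and 0.78. Most members lie below the dashed line in both, and Cox8a, Cox6a1 and Cox6b2 lie above 0 in both.

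Other mitochondrial lists had medians in the same range with TMM, where 35.0% of all genes were lower in EOM. Of the assembly factors, which build the complexes, 34 of 43 tested were lower in EOM and 1 higher (median −0.47), among them the complex IV factors Coa7 (−1.40) and Coa5 (−1.01). Of the citrate cycle genes 12 of 14 were lower (median −0.43), and of the general mitochondrial genes 12 of 13 (median −0.43, with the import channel gene Timm23 at −1.32 and the porin Vdac1 at −1.20). The carrier Slc25a5, an ADP/ATP translocase, was higher by 1.18. Among regulators of mitochondrial biogenesis 7 of 11 were lower, including Tfam (−0.77), which packages mitochondrial DNA, and 3 higher, including the nuclear receptor gene Esrrg (0.67). Atpif1, the inhibitor of ATP synthase, was 0.92 higher in EOM. As for the subunits, library totals turned the list medians positive, to 0.20 for assembly factors (22 higher, 6 lower), 0.25 for the citrate cycle (10 higher), 0.24 for general mitochondrial genes (8 higher, 3 lower) and 0.32 for regulators (7 higher, 2 lower), where 72.9% of all genes were higher.

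The muscles also differed in cell and fibre markers. The 8 fibroblast and tendon markers summed to 5043 to 5739 CPM in EOM and 450.3 to 647.7 CPM in TA, and all 8 were higher in EOM. The 8 macrophage markers summed to 517.3 to 645.4 CPM against 35.7 to 45.2 CPM (8 of 8 higher), and the 10 brain markers to 274 to 349.2 CPM against 19.5 to 31.2 CPM, with 4 at 0 in TA. The 8 fast glycolytic fibre markers summed to 27530 to 29904 CPM in EOM against 79758 to 88262 CPM in TA, and the 10 slow and oxidative fibre markers to 14696 to 15910 against 5386 to 6996 CPM. Their part in the difference of the subunits was not tested.

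Between the brainstem samples the differences of most subunits were small. In C57BL/6, 34 of 80 tested members were lower in CN3 than in CN6 and 0 were higher (edgeR; 49 at an unadjusted p under 0.05; 39 lower and 1 higher with DESeq2, where 15.2% of all genes were lower). Of all genes edgeR called 26.6%, 13.5% as lower in CN3 and 13.1% as higher. The median member was −0.17, against −0.004 over all genes. Lower members were 11 of 34 in complex I, 1 of 4 in complex II, 3 of 8 in complex III, 9 of 16 in complex IV and 9 of 15 in ATP synthase. Without CN6 replicate 3 the count was 20.

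Cox7b, an accessory complex IV subunit, stood at 175.9, 183.1, 189.8 and 193.7 CPM in CN3 and at 233.5, 224, 238.4 and 237.4 CPM in CN6. Every CN3 library lay below every CN6 library, and the difference was −0.37 (edgeR adjusted p = 6.5e-04). The complex I accessory subunits Ndufb8 (−0.37, adjusted p = 9.9e-04) and Ndufa9 (−0.36, adjusted p = 0.00102) were lower by similar amounts, as were Atp5g1 (−0.36), Atp5b (−0.27) and Uqcrfs1, the Rieske iron-sulfur protein (−0.27). Cox8b had the largest difference (−2.07 ± 0.41, SE, edgeR adjusted p = 0.00439) but at levels under 1 CPM. Of the citrate cycle genes 12 of 14 were also lower in CN3 (median −0.27, beside 13.5% of all genes), and Esrrg was lower by 1.27 (adjusted p = 0.0012). All 5 motor neuron markers were lower in CN3 (median −4.56), and their part in the lower subunit levels was not tested.

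In EOM most subunits were higher in albino mice as fitted and fewer of them with offsets for GC content and gene length. Of 81 tested members, 68 were higher in albino EOM (31 with the offsets), where 32.0% of all genes were called and 14.5% were higher in albino. The median member was 0.52 higher on the log2 scale (0.19 with the offsets), against 0.008 over all genes. Higher members were 30 of 34 in complex I, 3 of 4 in complex II, 5 of 8 in complex III, 15 of 17 in complex IV and 13 of 15 in ATP synthase. This rests on 2 albino libraries, EOM 3 and 4. Adding the 2 libraries labelled albino CN3 that carry muscle markers gave 69, of which 68 were the same genes, where 17.8% of all genes were higher.

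Uqcrq, a small subunit of complex III, stood at 348, 304.7, 286.4 and 360.1 CPM in C57BL/6 EOM and at 707.7 and 654.9 CPM in albino EOM. The strains did not overlap, and the difference was 1.08 ± 0.11 (SE, edgeR adjusted p = 6.3e-04). Atp5e stood at 384.3, 359.4, 318.1 and 371 CPM against 677.3 and 631.1 CPM (0.88, edgeR adjusted p = 7.6e-04), again with no overlap. The muscle isoforms were higher as well, Cox8b at 883.6 and 882.9 CPM in albino against 421.3 to 509.2 CPM (0.92 ± 0.10, edgeR adjusted p = 6.5e-04) and Cox7a1 at 550.8 and 540.6 CPM against 276.9 to 318.5 CPM (0.86 ± 0.09, edgeR adjusted p = 5.9e-04). The general isoforms Cox6a1, Cox7a2 and Cox8a were also called higher, Cox6a1 at 80.28 and 58.47 CPM against 44.43 to 49.41 CPM. With GC and length offsets Cox6a1 turned to −0.16 and Cox8a to −0.04. Other large differences were Ndufa4l2 (1.08), Ndufa2, an accessory complex I subunit (0.94), Uqcr11 (0.85), Atp5g1 (0.74) and Atp5j2, the f subunit of ATP synthase (0.72).

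The other 13 tested members did not pass in albino EOM. Sdha, the flavoprotein of complex II, stood at 1750, 1816, 1691 and 1868 CPM in C57BL/6 and at 1677 and 1769 CPM in albino, with overlapping groups (−0.03, edgeR adjusted p = 0.811). Ndufs1, the iron-sulfur subunit of complex I that takes electrons from the NADH-binding part, differed by 0.04 and Atp5a1 by 0.07. The complex III members Uqcrb, Uqcrc2 and Uqcrfs1 differed by 0.12, 0.20 and 0.23. The rest were Ndufa9, Ndufa10 and Ndufc2 of complex I, the isoforms Cox4i2 (0.85, edgeR adjusted p = 0.054) and Cox6b2 (0.68, adjusted p = 0.235), Atp5c1, and Atp5s, which is no subunit.

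These differences varied with gene properties over the whole table. Members have short transcripts, with a median exon length of 1578 bases against 4340 over the genes tested. Across genes, Spearman's rho of the strain difference in EOM with GC content was 0.47 over members and 0.52 over all genes, and with exon length −0.30 and −0.42, given as a description since genes are not independent. With offsets that remove the smooth trend with GC content and length in each library, 31 members were higher in albino EOM, with a median of 0.19, where 6.89% of all genes were. Of these, 30 were among the 68. Across the 4 settings (with and without offsets, with and without libraries grouped by markers) 29 were higher in all, among them Uqcrq, Uqcrh, Atp5e, Atp5g1, Atp5j2, Cox6c, Cox7b, Cox7c and Ndufa2. Cox8b, Cox7a1 and Uqcr11 were not among the 29.

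In TA 46 of 80 tested members were higher in albino mice, where 31.1% of all genes were called and 14.7% were higher. The median member was 0.21 higher, against 0.003 over all genes. Higher members were 21 of 34 in complex I, 1 of 4 in complex II, 4 of 8 in complex III, 11 of 16 in complex IV and 8 of 15 in ATP synthase. Adding the libraries labelled albino CN6 that carry muscle markers lowered the count to 38, all of them among the 46. The share of all genes higher in that fit is not given here. Uqcrq stood at 292.1, 320.7, 294.5 and 303.2 CPM in C57BL/6 TA and at 502.9 and 468.2 CPM in albino TA, with no overlap (0.65 ± 0.06, SE, edgeR adjusted p = 2.0e-05). Ndufs7, a core complex I subunit with an iron-sulfur cluster, stood at 221.6, 231.2, 202.5 and 212.6 CPM against 335.1 and 299.9 CPM, also with no overlap (0.52, edgeR adjusted p = 1.6e-04). Uqcr11 (0.55), Atp5e (0.53) and Atp5l, the g subunit of ATP synthase (0.56), were also higher. The largest called changes of complex IV were those of Ndufa4l2 and Cox6a1. Ndufa4l2 stood at 10.71 and 11.08 CPM in albino TA against 5.578 to 7.863 CPM. Cox6a1 stood at 21.27 and 17.95 CPM against 12.51 to 14.73 CPM.

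With the GC and length offsets 28 members were higher in albino TA, with a median of 0.10, where 11.0% of all genes were, and 21 of them were among the 46. Across the same 4 settings 16 were higher in all, including Uqcrq, Uqcr11, Uqcr10, Atp5e, Ndufs7 and Cox8b. Without albino TA replicate 3 the count as fitted was 27, and without replicate 4 it was 29. In albino TA all 8 macrophage markers (143.5 to 179.1 CPM summed, against 35.7 to 45.2 in C57BL/6) and 7 of 8 fibroblast markers (1235 to 1277 CPM against 450.3 to 647.7) were higher. In albino EOM 3 of 8 macrophage markers were higher, and of the fibroblast markers 5 of 8 were lower and 1 higher (3884 to 3943 CPM against 5043 to 5739), while 7 of 10 muscle markers were higher. The 5 endothelial markers summed to 475.4 to 482.8 CPM in albino EOM against 335.6 to 395.2 in C57BL/6, and to 316 to 321.1 CPM against 206.9 to 245 in TA, with 3 of 5 higher in each muscle. The 10 slow and oxidative fibre markers summed to 19753 to 20471 CPM in albino EOM against 14696 to 15910 (3 higher, 7 not called), and to 6855 to 9024 CPM against 5386 to 6996 in TA (2 higher, 2 lower). Their part in the strain differences was not tested.

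**Figure D5:**
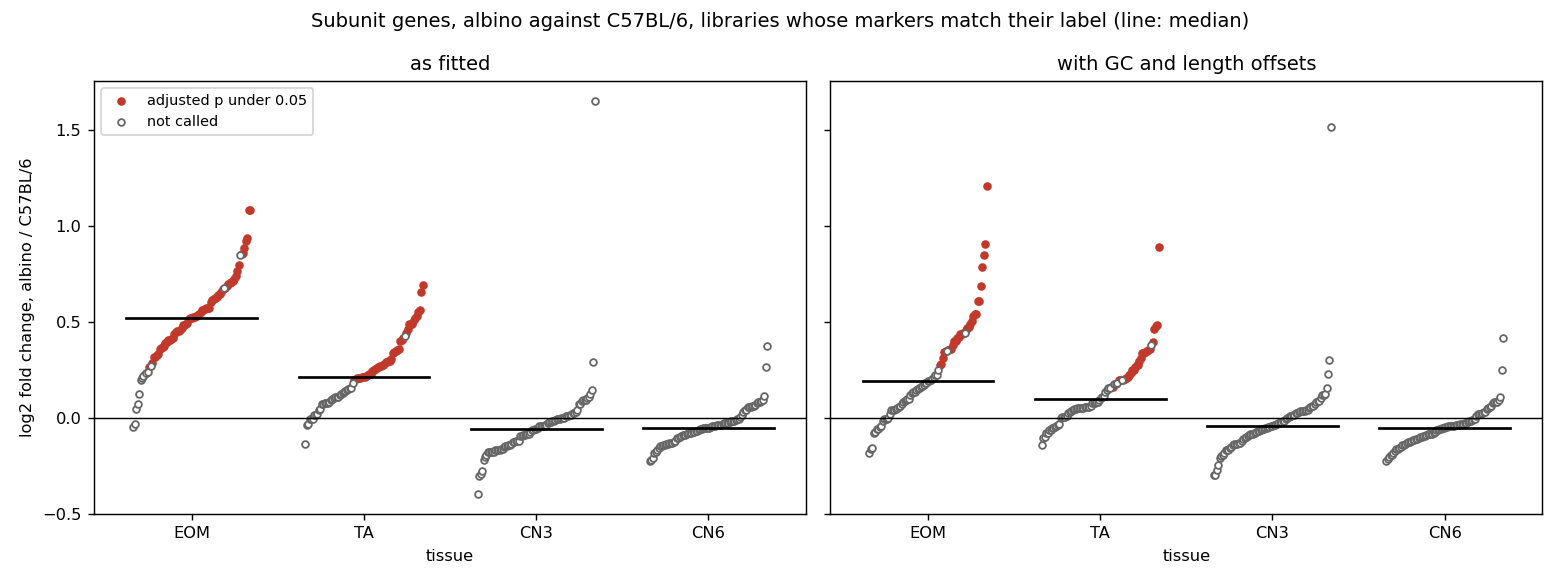
Log2 difference of albino minus C57BL/6 (vertical axis) for each tested member in EOM, TA, CN3 and CN6, as fitted and with GC and length offsets; filled points passed the test and lines are medians. The members' median is 0.52 in EOM and 0.21 in TA as fitted, 0.19 and 0.10 with offsets, and close to 0 in CN3 and CN6.

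As fitted, related lists had smaller median strain differences in EOM than the subunits, beside 14.5% of all genes higher and 17.6% lower. Of the assembly factors 20 of 43 tested were higher and 1 lower (median 0.28), of the citrate cycle genes 3 of 14 were higher and 1 lower (median 0.09), and of the general mitochondrial genes 6 of 13 were higher (median 0.17). Among the biogenesis regulators 1 of 11 was higher and 2 lower, one of them Ppargc1a, the coactivator PGC-1α (−0.51, edgeR adjusted p = 0.0239), while the higher one was Esrra, a nuclear receptor that acts with it (0.59, adjusted p = 0.00304). With offsets the medians were 0.22 for assembly factors (7 higher), 0.20 for the citrate cycle (6 higher), 0.11 for general mitochondrial genes (4 higher) and 0.001 for regulators (1 higher), beside 0.19 for the subunits. In albino TA 2 of the 11 regulators were higher and 4 lower (median −0.10, beside 14.7% of all genes higher and 16.4% lower), with Esrra at 0.47 (adjusted p = 4.0e-04), Ppargc1b at 0.82 (adjusted p = 0.00328) and Tfb2m at −0.33 (adjusted p = 0.00346). Atpif1 was 0.82 higher in albino EOM and 0.63 higher in albino TA. Whether the lists differ from the subunits was not tested.

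The strain difference was larger in EOM than in TA for 12 of 81 tested members by the interaction term in edgeR, where 7.73% of all genes were called and 2.23% had a larger difference in EOM. The median interaction was 0.28, against −0.03 over all genes. Ndufa5, an accessory subunit of the complex I peripheral arm, stood at 302.5, 292.4, 310.8 and 310.9 CPM in C57BL/6 EOM and 496.1 and 442.8 CPM in albino EOM. In TA it stood at 230.3, 237.6, 226.6 and 212.7 CPM against 235.3 and 253.1 CPM, so the strains lay apart in EOM and overlapped in TA (interaction 0.56, edgeR adjusted p = 0.0034). The left-out libraries labelled albino CN6 3 and 4, with muscle markers, spread more widely. Ndufa5 took 7287 of 18996461 counts in the first, above all these TA values. In the second it took 4743 of 23798076 counts, below all of them. Cox6c stood at 660.4, 608.1, 617.1 and 644.5 CPM against 1051 and 907.7 CPM in EOM, and at 616.2, 629.2, 620.2 and 588.3 CPM against 662.4 and 686.7 CPM in TA (interaction 0.53, adjusted p = 0.00744). In these libraries its strains did not overlap in either muscle, with the wider gap in EOM. The left-out libraries labelled albino CN6 3 and 4 stood at 1140 and 572.2 CPM, above and below all C57BL/6 TA libraries. Those labelled albino CN3 3 and 4, also with muscle markers, stood at 1284 and 851.5 CPM. The other members were Ndufa6, Ndufs6, Ndufv3, Ndufb11, Ndufa3, Ndufa4, Atp5g1, Atp5o, Cox7b and Uqcrh. The count depends on single libraries, from 1 without albino EOM replicate 3 to 20 without C57BL/6 EOM replicate 4. With the offsets it was 7, where 2.08% of all genes were called in that direction. In the same interaction all 8 fibroblast and 7 of 8 macrophage markers had a smaller strain difference in EOM than in TA, and their part was not tested.

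The isoform ratios of the albino muscles had 2 libraries against 4, where the smallest exact p is 0.133, and are given as values. Cox7a1 made up 63.1% and 65.7% of its pair in albino EOM, above the C57BL/6 range of 56.8% to 58.6%, and 73.5% and 76.5% in albino TA, above 70.5% to 72.9%. The left-out libraries with muscle markers gave 57.07% and 64.59% (labelled albino CN3 3 and 4) and 69.5% and 72.84% (labelled albino CN6 3 and 4). Taken as EOM and TA, they would make the strains overlap in both muscles. Cox6a2 made up 93.7% and 95.0% in albino EOM, overlapping with the C57BL/6 range of 93.1% to 94.8%, and 97.5% and 97.6% in albino TA, below 97.8% to 98.1%. In the libraries labelled albino CN6 3 and 4 it made up 97.94% and 97.75%, the first within that C57BL/6 TA range. The shares of Cox8b in albino EOM (90.8% and 92.8%) overlapped with C57BL/6 (89.5% to 91.4%), as they did in TA (97.4% and 97.6% against 97.2% to 97.6%).

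In the brainstem samples no member was called between the strains. In CN3 0 of 81 passed in edgeR, 7 at an unadjusted p under 0.05, and DESeq2 called 0. Of all genes edgeR called 0.0804% and DESeq2 0.625%. In CN6 0 of 80 passed, 1 at an unadjusted p under 0.05, and DESeq2 called 0. Of all genes edgeR called 0.0246% and DESeq2 0.652%. The median member was −0.06 in CN3 and −0.05 in CN6. The smallest p in CN3 belonged to Cox8a, whose difference was −0.30 (edgeR adjusted p = 0.523), and in CN6 to Atp5g1 (−0.23, adjusted p = 0.521). The widest estimate in CN3 was that of Cox7b2 (1.65, not called), which stood at 0.387 CPM or less in those libraries. In CN3, 4 of 5 motor neuron markers were higher in albino (median 4.18), and their part in the subunit values was not tested. The fit without albino CN6 replicate 2 rests on 1 albino library, so its calls are not read as a result.

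The isoforms also marked the 8 contradicting libraries. Cox6a2 stood at 1213, 904.5, 808.9 and 586.6 CPM in the libraries labelled albino CN3 3, CN3 4, CN6 3 and CN6 4, and at 0.25, 3.30, 0.28 and 0.34 CPM in those labelled albino EOM 1, EOM 2, TA 1 and TA 2. Cox8a, which separated EOM from TA, stood at 151.3 and 111.4 CPM in the libraries labelled albino CN3 3 and 4 and at 22.7 and 23.4 CPM in those labelled albino CN6 3 and 4. In matching albino EOM it stood at 154.5 and 117.3 CPM, and in matching albino TA at 26.2 and 22.8 CPM.

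Promoter windows were searched on both strands for 3 motifs in the 66 of 84 members with a RefSeq entry. The NRF1 palindrome (GCGC, 2 bases, GCGC) was in 14 members (21.2%), against 7.75% of 17224 genes of the table with an entry. This motif contains CG dinucleotides, of which the windows of members held a median of 14 against 10 over all windows. The motif shares were not adjusted for base composition. AAGGTCA, the site of estrogen-related receptors, was in 5 members (7.58%) against 4.3% of all genes, and CAGCTG in 6 (9.09%) against 14.3%. The NRF1 motif was present for Cox6a1, Sdha, Sdhd, Atp5c1, Atp5g2, Ndufa5 and 8 others, and none of Cox7a1, Cox7a2, Cox8a and Cox8b held it. A missing match says only that these letters are not in this window.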

How the data were processed

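RNA of each sample was extracted with column kits made for fibrous or fatty tissue, per the labels' protocols. The deposited table holds raw counts per gene for 24421 genes in 32 libraries, with no normalization by the authors. Reads were handled with Trimmomatic 0.33, FastQC, HISAT2 2.1.0 on mm10, featureCounts and edgeR, per the submitters' processing notes. The annotation, the strand setting and the treatment of reads with several matches are not given in the sources used here, and many of these genes have processed pseudogenes that could share reads. Among genes with 1 to 20 counts, 75.4% to 84.7% of the counts in a library were even, so 1 count is not taken as 1 independent molecule.

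The members and lists were chosen with earlier results of these data known. Each library's tissue was checked against 10 muscle and 10 brain markers. The tests used edgeR 4.0.16 in R 4.3.3: its expression filter, TMM factors, the quasi-likelihood fit on the libraries of each comparison, and Benjamini-Hochberg adjustment over all tested genes, with an adjusted p under 0.05 as a call. Isoform ratios were taken per exon length within a library after adding 0.5 to each count and compared by exact two-sided permutation tests. Lengths, GC content and positions came from GENCODE M21 on GRCm38, and promoters from RefSeq.

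Genes named were drawn from the isoform sets, complex II and III, the 2 largest called changes per complex and direction (mean CPM of at least 1) and the 3 smallest adjusted p of each strain comparison. Not every gene under this rule is named in each comparison, and Cox5a and Ndufc1 were left out. Any other member named, among them Ndufa3, Ndufs1 and Atp5a1, was chosen after its values were seen. Mitochondrially encoded subunits were not analysed here.

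The labels do not say that replicate numbers mark shared animals. Deviations of same-numbered libraries correlated at −0.0123 to 0.0992 between C57BL/6 EOM and TA and at −0.177 to 0.143 between CN3 and CN6. Between albino EOM and TA the correlation was 0.161. That is a single value repeated in each pair by construction, as deviations in groups of 2 libraries mirror each other. No comparison of 3 or more pairs had every correlation over 0.1, so the numbers were not used as pairs. Libraries of a group differed by more than sampling noise, with a chi-square per gene of 6.04 to 47.9. Alternatives were other scalings and filters, DESeq2 1.42.0, a replicate block, GC and length offsets, other groupings of the albino libraries and leaving out each library. Library totals as scaling, and marker grouping with offsets, were chosen after seeing the data. The tests were tested on simulated counts.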

Additional observations from a re-analysis of the deposited data

Results flagged for a closer look

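In 4 of the 67 groups of 4 libraries examined for isoform genes, 1 library lay far from the other 3, judged by its gap against the range of the group; chance alone does this in about 1 in 20 groups. Cox6a2 was low in C57BL/6 TA 3 at 557.2 CPM, and Atp5g3 was low in C57BL/6 EOM 3 at 733.1 CPM. In C57BL/6 CN3 1, Cox7a2 was low at 143.9 CPM and Cox7a2l stood apart at 123.6 CPM. The cause was not tested.

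The strain difference in EOM exceeded that in TA for 12 members by the interaction term (edgeR, adjusted over all genes). In complex I the excess on the log2 scale was 0.56 for Ndufa5, 0.53 for Ndufa6, 0.47 for Ndufs6, 0.43 for Ndufv3, 0.42 for Ndufb11 and 0.39 for Ndufa3. In complex IV it was 0.53 for Cox6c, 0.39 for Cox7b and 0.39 for Ndufa4. It was 0.42 for Uqcrh, the hinge protein of complex III, 0.44 for Atp5g1 and 0.36 for Atp5o, part of the peripheral stalk of ATP synthase.

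Cox6a2 was high in libraries that carry a brainstem label and were left out of the comparisons. It stood at 1213 and 904.5 CPM in those labelled albino CN3 3 and CN3 4, where no C57BL/6 CN3 library exceeded 1.76 CPM. In those labelled albino CN6 3 and CN6 4 it stood at 808.9 and 586.6 CPM, where no C57BL/6 CN6 library exceeded 0.204 CPM.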

How the results depend on the processing

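The strain comparisons rest on 2 albino libraries a tissue, and a fit without one of them takes the spread of the lone library from the others. The named genes followed under the alternatives left out complex II and part of complex III. Of their values, 2118 kept direction and side of the threshold, 20 passed it only there, 113 no longer passed and 34 reversed. For EOM against TA, 11 of these genes called with TMM or library totals turned from negative with the first to positive with the second. All but Atp5g3 had been called lower with TMM. Their values with totals were Atp5g3 0.52, Cox7a2l 0.43, Cox6a2 0.29, Atp5g1, Cox6b1 and Cox7b 0.28 each, Cox8b 0.27, Ndufa4 0.18, Cox4i1 0.08, Uqcr10 0.07 and Uqcrc1 0.06. Members not followed turned as well, among them Sdha and Sdhb (0.42 each with totals), Sdhc (0.45) and Sdhd (0.25). Members called higher in EOM numbered 5 with upper quartile factors and 56 with library totals, against 3. Members called higher in CN3 than CN6 numbered 1 without a filter, with a CPM filter, with DESeq2, with library totals and with all C57BL/6 libraries in 1 fit, against 0. GC and length offsets turned Cox7a2l to −0.18 between muscle and brainstem.

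With all libraries as labelled, 0 members were called between strains in EOM, TA or the interaction, since groups of mixed tissue enter that fit by construction. In EOM this turned Cox6a2 to −0.39, Cox7a2 to −0.23, Atp5g1 to −0.12, Cox7a1 to −0.10, Atp5j2 to −0.07, Cox8b to −0.04 and Uqcr11 to −0.01. In TA it turned Cox6a2 to −0.74, Cox8b to −0.51, Cox7a1 to −0.50, Ndufa2 to −0.38, Atp5e to −0.37, Ndufs7 and Uqcr11 to −0.34, Cox7a2 to −0.32, Atp5l and Uqcrq to −0.27 and Ndufa4l2 to −0.05. Offsets gave 31 members in EOM and 28 in TA, and with marker grouping 32 and 25. They turned Cox6a1 in EOM to −0.16 (−0.13 with marker grouping) and Cox8a to −0.04 (−0.01). The interaction gave 7 members with RLE factors, 30 with upper quartile factors, 20 with DESeq2, 7 with offsets and 4 with offsets and marker grouping, against 12. The share of all genes called is not given for each alternative, so these counts show only how the number of members moved. The cause of these changes was not tested.

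Leaving out 1 library gave 73 to 76 called members for EOM against TA (3 to 4 higher), 20 to 34 for CN3 against CN6 (0 to 1 higher), 81 for muscle against brainstem, and for the strains 54 to 70 in EOM, 27 to 48 in TA, 0 in CN3, 0 to 5 in CN6 and 1 to 20 for the interaction. For the interaction, dropping albino EOM 3 left 1, albino TA 4 left 2, albino TA 3 or C57BL/6 EOM 2 left 3, C57BL/6 TA 2 left 4, albino EOM 4 or C57BL/6 TA 1 left 5, C57BL/6 TA 3 left 6, C57BL/6 TA 4 left 7, and dropping C57BL/6 EOM 4 gave 20. A replicate block, for numbers that do not pair the samples, gave 76 for EOM against TA, 26 for CN3 against CN6, 81 for muscle against brainstem, 56 in EOM, 42 in TA, 0 in CN3 and CN6 and 10 for the interaction. Depth limits the muscle isoforms in brainstem, where Cox6a2 had 2 to 54 counts a library.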
